A study of Mus musculus with 2 samples.

Results

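The genes described here are 39 immediate early, heat shock and stress genes that are known to respond when a tissue is taken apart into single cells. They were chosen by symbol from a list of genes known to respond to dissociation, and all 39 had exactly 1 row among the 32285 genes of the count tables. They were followed in single cell RNA sequencing of L4 and L5 dorsal root ganglia (DRG), which hold the cell bodies of sensory neurons, the satellite glial cells (SGCs) around them and the nerve, vessel and connective tissue cells next to them. Both samples (sample 1 and sample 2) were naive female mice aged 3 months of the C57BL/6 strain, with no injury, treatment or transgene, so the samples are replicates of 1 condition. Every cell of both samples went through warm papain, then warm collagenase, trituration, a dead cell stain and live cell sorting before capture. Without tissue that was not dissociated, the level a gene had in the ganglion and any change during cell preparation cannot be told apart in these values. A level below is in unique molecular identifiers (UMIs, single captured mRNA molecules) of a gene scaled to the UMI total of its cell type (counts per 1e6, CPM). Unless called plain, CPM use a total multiplied by a normalisation factor (trimmed mean of M values, TMM). The factors ran from 0.859 in macrophages of sample 1 to 1.096 in non-myelinating Schwann cells of sample 2. Other quantities are differences of log2 levels, shares of UMIs, UMIs per cell, shares of cells and correlations.

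The libraries held 119101743 UMIs in sample 1 and 128668771 UMIs in sample 2, of which 90.1% and 86.5% lay in droplets called as cells. Of 17584 cells called, 12787 entered 8 named types: 5478 SGCs, 3193 myelinating Schwann cells, 1468 non-myelinating Schwann cells, 1121 fibroblasts, 665 mural cells, 417 endothelial cells, 344 macrophages and 101 neurons. Clusters were named from markers, among them *Fabp7* at 13020 and 13290 CPM in SGCs of samples 1 and 2 and *Prph* at 2360 and 2167 CPM in neurons. The types differed in depth and in mitochondrial RNA, which are given beside the results they move with. Called cells of the libraries shared 135 barcodes where 11.4 would fall together by chance, and 58 of the 101 neurons were among them. The copy of each of those 58 in the other library held under 5% of the neuron's UMIs (median 0.534%), and results on neurons are also given without these cells.

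Immediate early genes are transcribed within minutes of a stimulus, from machinery already present in the cell and without new protein synthesis. Many encode transcription factors, such as the FOS and JUN proteins that pair to form activator protein 1 (AP-1), and others encode proteins that shut the response off again. Heat shock genes encode chaperones that refold damaged proteins, and both sets are known to be switched on by warming, enzymes and shear during cell isolation as well as by injury and activity in living tissue.

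The 39 genes are short. In the GENCODE M21 annotation of the mouse GRCm38 build (the files use its equivalent mm10), their median span was 3.95 kb, against 25.4 kb over the 14873 protein-coding genes tested. A span under 10 kb was found for 33 of the 39 (84.6%) and for 23.6% of all those genes. A single exon was annotated for 10 of them (25.6%), against 3.03% of all: *Jun*, *Junb*, *Jund*, *Cebpb*, *Cebpd*, *Ier2*, *Ier5*, *Rhob*, *Hspa1a* and *Hspa1b*. The RefSeq promoter table (GRCm38.p6) held 32 of the 39 genes, and the 250 bases before each start were searched on both strands. The letters TGACG, the core letters of the cAMP response element, were found in 15 of the 32 (46.9%) and in 17.8% of all 32851 promoters. GAANNTTC, the core of the heat shock element, was found in 6 of the 32 (18.8%) and in 6.69% of all promoters. The full AP-1 site TGACTCA was in 0 of the 32 windows and in 4.46% of all. A match in these letters is a description of the window and not evidence of a bound site.

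The 150 bases before the start are shown for *Fos* and *Nr4a2*, which were higher in myelinating Schwann cells than in each other type, and for the inducible heat shock protein 70 genes *Hspa1a* and *Hspa1b*. They run 5′ to 3′ on the strand of the gene. Capitals mark TGACG or its reverse complement in *Fos* (chr12:85473740-85473889, plus strand) and *Nr4a2* (chr2:57124004-57124153, minus strand), and GAANNTTC in *Hspa1a* (chr17:34972157-34972306, minus strand) and *Hspa1b* (chr17:34959239-34959388, minus strand).
Fos: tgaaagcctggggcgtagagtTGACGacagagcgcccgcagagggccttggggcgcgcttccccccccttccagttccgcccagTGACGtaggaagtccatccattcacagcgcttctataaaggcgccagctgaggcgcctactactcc
Nr4a2: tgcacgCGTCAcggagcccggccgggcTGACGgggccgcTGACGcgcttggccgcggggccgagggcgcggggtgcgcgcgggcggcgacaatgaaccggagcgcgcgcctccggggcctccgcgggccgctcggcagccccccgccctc
Hspa1a: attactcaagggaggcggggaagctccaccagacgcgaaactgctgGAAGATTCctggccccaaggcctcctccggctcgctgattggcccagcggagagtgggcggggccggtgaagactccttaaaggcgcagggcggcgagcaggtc
Hspa1b: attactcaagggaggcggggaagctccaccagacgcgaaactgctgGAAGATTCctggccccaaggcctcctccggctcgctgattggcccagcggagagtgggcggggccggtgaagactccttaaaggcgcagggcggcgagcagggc
*Hspa1a* and *Hspa1b* lie 9.95 kb apart on chromosome 17, and these windows carried the same base at 149 of 150 positions. The transcripts of this gene pair are near copies too, so the split of UMIs between the pair is uncertain and their values are best read together.

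Macrophages, mural cells and endothelial cells carried the largest shares of the immediate early genes, and neurons and SGCs the smallest. The 32 members outside the heat shock group took 2.32% and 2.23% of all UMIs of macrophages in samples 1 and 2, 2.31% and 2.10% in mural cells, and 2.22% and 2.44% in endothelial cells. The share was 1.714% and 1.935% in myelinating Schwann cells, 1.555% and 1.838% in fibroblasts, and 1.37% and 1.11% in non-myelinating Schwann cells. It was 0.447% and 0.496% in SGCs and 0.224% and 0.197% in neurons. The samples thus overlapped among the 3 highest types and between myelinating Schwann cells and fibroblasts, while neurons, SGCs and non-myelinating Schwann cells each lay apart from the others in both samples. Droplets without a cell held 1.13% and 1.12%, above the share in SGCs and neurons.

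The 7 heat shock members were ordered differently. They took 0.562% and 0.613% of UMIs in mural cells, 0.527% and 0.584% in macrophages and 0.497% and 0.481% in neurons, which placed neurons among the highest types. The lowest shares were 0.151% and 0.178% in myelinating Schwann cells, 0.171% and 0.199% in fibroblasts and 0.179% and 0.212% in SGCs, and fibroblasts overlapped with both of the others.

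A share of UMIs is not an amount per cell, because the types differed in total UMIs. The median neuron held 108513 UMIs, against 16556.5 in SGCs, 16443 in endothelial cells, 12470 in fibroblasts, 11051.5 in macrophages, 8614 in mural cells, 6152.5 in non-myelinating and 5340 in myelinating Schwann cells. Counted per cell, the 32 members gave 248 and 205 UMIs in a neuron and 74.7 and 87.25 UMIs in an SGC. A neuron thus held more of these molecules than an SGC although their share of its RNA was smaller. Endothelial cells held the most, at 421 and 455 UMIs per cell. The heat shock members gave 550 and 501 UMIs per neuron, and no other type exceeded 79.7.

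**Figure D1:**
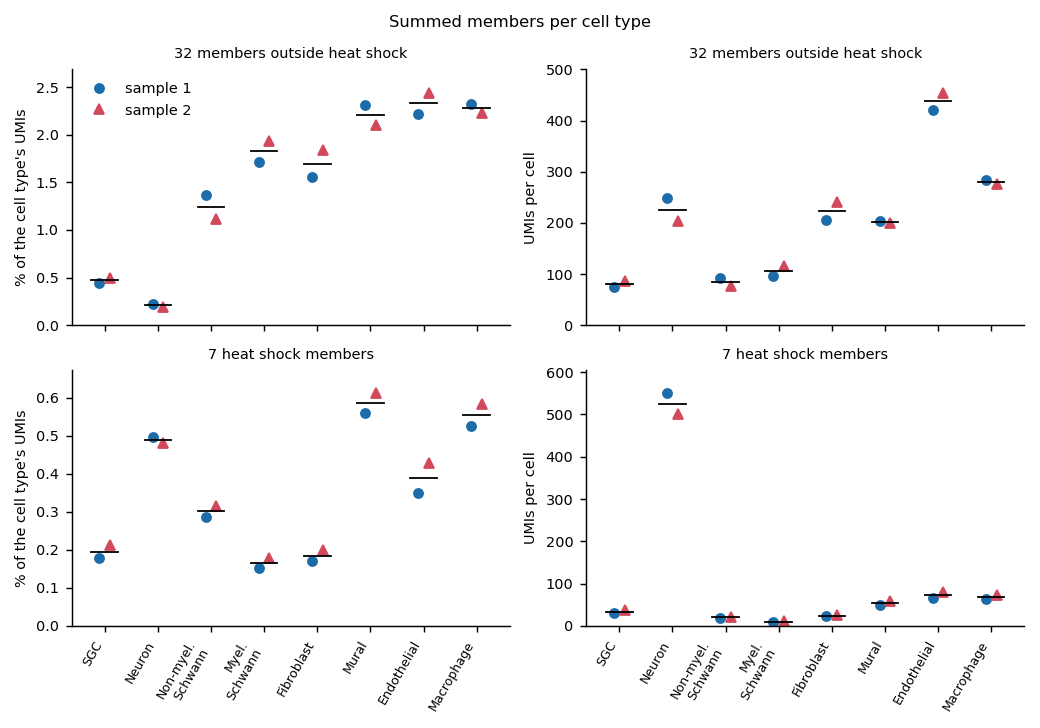
Summed level of the 32 members outside the heat shock group (top) and the 7 heat shock members (bottom) in each cell type, as % of the type's UMIs (left) and as UMIs per cell (right). Circles are sample 1, triangles sample 2 and bars their mean; neurons are lowest in the share of the 32 (0.224% and 0.197%) but not in UMIs per cell (248 and 205).

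Each type was compared with the mean of the other 7 in 1 edgeR quasi-likelihood fit of the summed profiles of both samples, with p-values adjusted over all 17653 genes tested. All 39 members passed the filter on low counts. In macrophages, 34 of the 39 were higher (23.3% of all genes tested were) and 3 lower (27.3% of all genes were). In mural cells 31 were higher (22.6% of all genes) and 3 lower (20.1%). In endothelial cells 26 were higher (26.4%) and 3 lower (25.9%). Fibroblasts had 23 higher (26.7%) and 9 lower (21.3%). Lower calls outnumbered higher ones in neurons and SGCs: neurons had 6 higher (37.0% of all genes) and 31 lower (31.4%), and SGCs had 3 higher (34.5%) and 30 lower (23.5%). Schwann cells lay between, with 18 higher (27.7%) and 18 lower (24.1%) in the myelinating and 12 higher (22.0%) and 15 lower (17.4%) in the non-myelinating cells. These comparisons share profiles, since each type is part of the mean that the others are set against.

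**Figure D2:**
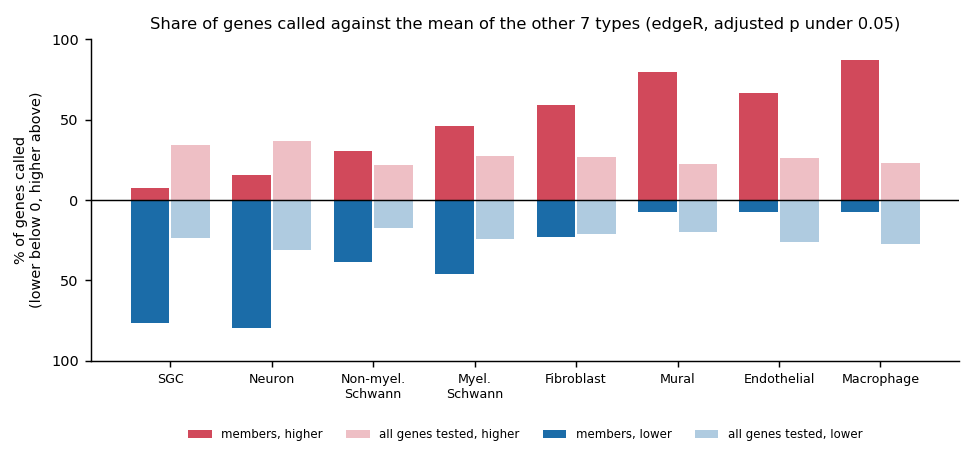
Share of the 39 members (dark bars) and of all 17653 genes tested (pale bars) that were higher (above 0) or lower (below 0) in each type than the mean of the other 7, at an adjusted p under 0.05 in edgeR. In macrophages 87.2% of members were higher, and in neurons 79.5% were lower.

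The median difference over the 39 members was 1.31 on the log2 scale in macrophages, against -0.26 over all genes tested. It was 1.07 in mural cells, 0.84 in endothelial cells and 0.565 in fibroblasts, where the medians of all genes were -0.06, -0.09 and -0.01. In neurons it was -2.66 and in SGCs -1.27, against -0.002 and 0.046 over all genes. The median was -0.165 in myelinating and -0.06 in non-myelinating Schwann cells. Median mitochondrial shares were 8.43% in SGCs and 8.52% in myelinating Schwann cells, 5.15% in neurons, 2.83% in macrophages and 2.55% in endothelial cells, and their part in these differences was not tested. RNA of empty droplets was estimated at between 0.816% and 3.98% of a profile, and with it subtracted 31 members were lower in neurons, 30 lower in SGCs and 34 higher in macrophages, the same counts as without the subtraction. Without the barcodes shared by the libraries, which left out 58 of the 101 neurons, 32 members were lower and 5 higher in neurons. The shares of all genes called in these settings are not given here.

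**Figure D3:**
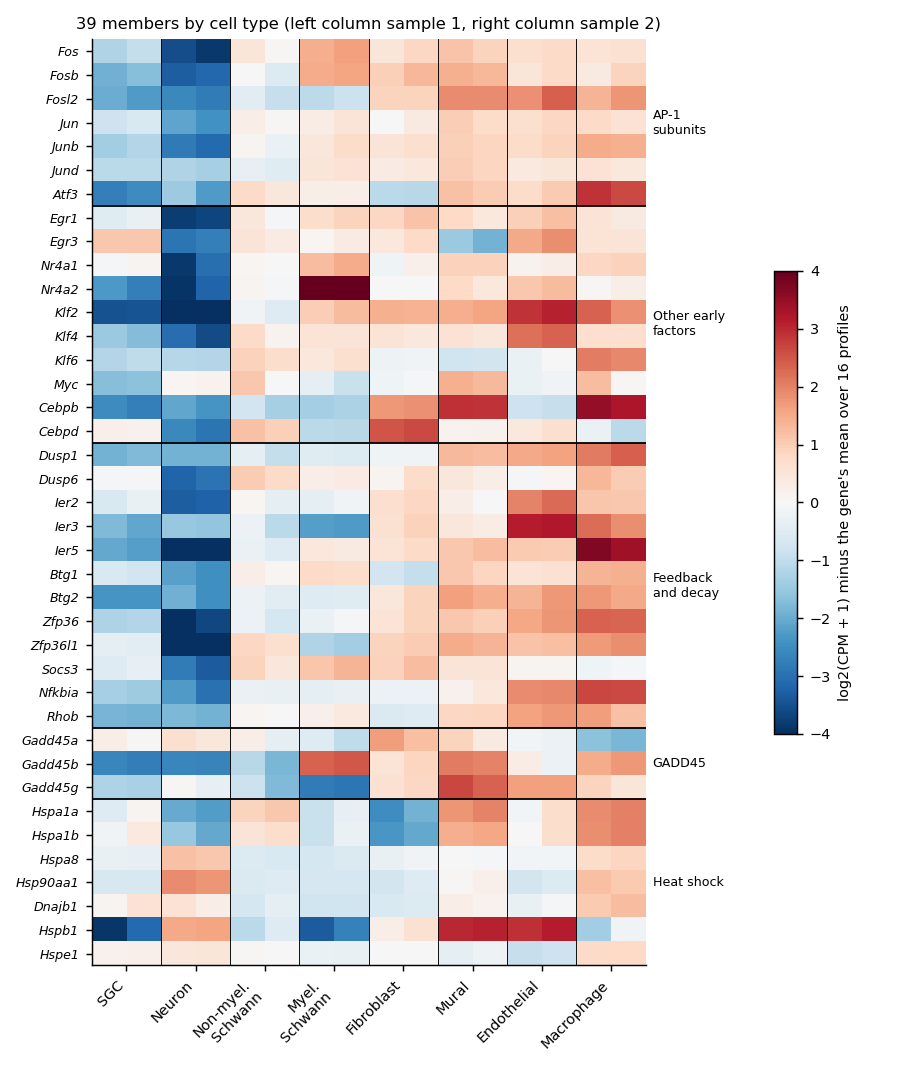
Levels of the 39 members, grouped by role, in the 8 types (left column of each pair sample 1, right column sample 2). Colour gives log2(CPM + 1) minus the gene's mean over the 16 profiles, with red above and blue below. Most rows above the heat shock block are blue in neurons, where *Hspa8* and *Hsp90aa1* are red, and *Nr4a2* is darkest red in myelinating Schwann cells.

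The AP-1 subunits form the dimers that bind AP-1 sites. *Fos* stood at 5885 and 6706 CPM in myelinating Schwann cells of samples 1 and 2, at 4730 and 4010 CPM in mural cells, and at 3372 and 3682 CPM in endothelial cells. Fibroblasts had 3024 and 3821 CPM, macrophages 3139 and 3241 CPM and non-myelinating Schwann cells 2988 and 2223 CPM. SGCs had 939 and 1097 CPM and neurons 183 and 147 CPM. Myelinating Schwann cells were above every other type in both samples: *Fos* was higher there than the mean of the others by 1.77 ± 0.10 (log2, SE; adjusted p = 9.4e-11) and higher than in mural cells, the next type, by 0.53 ± 0.15 (adjusted p = 0.0081). *Fos* was 6.16-fold higher in SGCs than in neurons by level (adjusted p = 1.8e-10), and its level in SGCs was 0.162 times that in myelinating Schwann cells (adjusted p = 3.2e-10). Counted per cell, SGCs and neurons lay close, with 14.0 and 17.4 *Fos* UMIs per SGC and 20.96 and 16.18 per neuron.

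*Jun*, the partner of FOS, varied less between types. Its level was 3190 and 2688 CPM in mural cells, 2544 and 2848 CPM in endothelial cells and 2740 and 2422 CPM in macrophages, which overlapped. It was 1967 and 2303 CPM in myelinating and 1951 and 1673 CPM in non-myelinating Schwann cells, 1600 and 2066 CPM in fibroblasts, 904 and 1067 CPM in SGCs and 375 and 302 CPM in neurons. Mural and endothelial cells did not differ beyond their spread for *Jun* (0.12 ± 0.15, adjusted p = 0.54), whereas the lower level in SGCs than the mean over the others passed (-0.82).

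*Junb* was highest in macrophages, at 2595 and 2489 CPM, and *Jund*, a subunit with steady expression in many tissues, in mural cells, at 2034 and 1852 CPM. Both passed against each other type, *Junb* over mural cells by 0.55 ± 0.14 (adjusted p = 0.0027) and *Jund* over myelinating Schwann cells by 0.41 ± 0.09 (adjusted p = 0.0015). In neurons *Jund* stood at 442 and 403 CPM, which put it at the lowest level of the 8 types, and SGCs had 477 and 482 CPM. *Atf3*, a stress-induced factor used as a marker of injured sensory neurons, was at 2255 and 1903 CPM in macrophages, where it was 3.16 ± 0.11 above the mean of the others (log2, adjusted p = 6.8e-14). Neurons had 109 and 62.1 CPM of *Atf3* and SGCs 45.3 and 51.9 CPM, both lower than the mean of the others. *Fosb* (highest in myelinating Schwann cells, 705 and 765 CPM) and *Fosl2* (highest in endothelial cells, 88.3 and 128.5 CPM) did not pass against mural cells, the next type, with adjusted p = 0.47 and 0.24.

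Among the other immediate early factors the leading type changed from gene to gene. *Nr4a2*, a nuclear receptor without a known natural ligand, was at 796 and 888 CPM in myelinating Schwann cells and at 101 and 116 CPM in endothelial cells, the next type. The difference from the mean of the others was 4.80 ± 0.08 (log2, adjusted p = 3.1e-17). In cells thinned to 1000 UMIs each, at least 1 *Nr4a2* UMI was present in 44.4% of 1574 myelinating Schwann cells of sample 1 (exact 95% interval 41.9% to 46.8%) and 48.0% of 1613 of sample 2 (45.5% to 50.5%). In SGCs, which had 8.79 and 6.31 CPM of *Nr4a2*, the shares were 1.01% and 0.371%. Without thinning the shares were 81.1% and 82.2% in myelinating Schwann cells and 7.99% and 7.12% in the deeper SGCs. These intervals cover counting error only. *Nr4a1*, of the same receptor family, also led in myelinating Schwann cells, at 376 and 446 CPM against 304 and 303 CPM in mural cells (0.44 ± 0.15, adjusted p = 0.02).

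*Klf2* and *Klf4*, Krüppel-like factors that blood flow induces in vessel walls, were highest in endothelial cells. *Klf2* stood there at 1181 and 1322 CPM, against 802.5 and 560.6 CPM in macrophages, 13 and 13.34 CPM in SGCs and 2.69 and 3.14 CPM in neurons. The RNA of empty droplets, at its estimated share in neurons, would give 1.64 and 2.12 CPM of *Klf2* there, so no fold between endothelial cells and neurons is given. *Klf4* was at 451 and 498 CPM in endothelial cells, 1.61 ± 0.16 above macrophages (adjusted p = 2.4e-07). *Egr3*, a zinc finger factor, was also highest there, at 74.6 and 95.6 CPM, and SGCs were second at 55.5 and 55.0 CPM. *Egr3* was the 1 member of the 32 outside the heat shock group that was higher in SGCs than the mean over the remaining types, by 1.32 on the log2 scale. It was lower there than in endothelial cells by 0.63 ± 0.12 (adjusted p = 0.00024). A cluster of 2840 cells with SGC markers, left unnamed by the marker pair requirement, is not part of this comparison. In plain CPM, without TMM, *Egr3* was at 135.6 and 147.3 CPM in that cluster and at 79.83 and 101.0 CPM in the endothelial cluster.

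*Egr1*, the best known early zinc finger factor, had no single leading type. Its level was 801 and 945 CPM in endothelial cells, 725 and 903 CPM in fibroblasts, 669 and 756 CPM in myelinating Schwann cells and 709 and 544 CPM in mural cells. Endothelial cells and fibroblasts did not differ beyond the spread (0.10 ± 0.16, adjusted p = 0.64). SGCs had 293 and 334 CPM and neurons 28.4 and 30.9 CPM, the lowest of the 8 types in both samples.

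The CCAAT enhancer binding proteins separated fibroblasts and macrophages. *Cebpd* was at 1307 and 1426 CPM in fibroblasts and at 518 and 446 CPM in non-myelinating Schwann cells, the next type (1.51 ± 0.16, adjusted p = 3.5e-07). SGCs had 260 and 255 CPM of *Cebpd* and neurons 37.5 and 29.2 CPM. *Cebpb* was at 1261 and 1024 CPM in macrophages and 832 and 817 CPM in mural cells, and it was lowest in SGCs at 18.3 and 15.35 CPM. *Klf6* was also highest in macrophages, at 1227 and 1123 CPM, followed by non-myelinating Schwann cells at 559 and 480 CPM, and neurons had 133 and 130 CPM. *Myc* was low throughout, from 4.23 CPM in SGCs to 44.97 CPM in mural cells, and its leading type did not pass against the next.

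The feedback and mRNA decay genes were the group in which macrophages led most often. *Zfp36*, which encodes tristetraprolin, a protein that directs the decay of inflammatory and immediate early mRNAs, was at 1881 and 1819 CPM in macrophages. It stood at 1071 and 1226 CPM in endothelial cells, 772 and 703 CPM in mural cells, 536 and 677 CPM in fibroblasts, 155.5 and 161 CPM in SGCs and 18.7 and 28.3 CPM in neurons. *Dusp1*, a phosphatase that switches off MAP kinases, reached 1011 and 1259 CPM in macrophages and 690 and 739 CPM in endothelial cells (0.67 ± 0.13, adjusted p = 0.00048). *Nfkbia*, the inhibitor of NF-kappa-B, was at 989 and 975 CPM, and *Ier5* at 930 and 756 CPM, against 150 and 170 CPM of *Ier5* in mural cells, the next type. *Btg1* (728 and 760 CPM) and *Zfp36l1* (700 and 773 CPM) also passed in macrophages against each other type. In all, 6 of the 12 genes of this group were higher in macrophages than in each other type (9.63% of all genes tested were).

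Endothelial cells led for *Ier3*, at 1108 and 1174 CPM against 587 and 460 CPM in macrophages, and for *Ier2*, at 684 and 833 CPM against 372 and 363 CPM. Both passed against each other type (adjusted p = 7.4e-05 and 1.5e-05 over macrophages, the next type for both). For *Btg2*, a growth arrest gene, macrophages (1052 and 901 CPM), mural cells (986 and 850 CPM) and endothelial cells (797 and 1048 CPM) overlapped. *Socs3*, which inhibits cytokine signalling, was highest in myelinating Schwann cells (622 and 731 CPM) and did not pass over fibroblasts (543 and 671 CPM, adjusted p = 0.39). It stood at 538 and 396 CPM in non-myelinating Schwann cells and at 198 and 227 CPM in SGCs. *Rhob* in endothelial cells (664 and 726 CPM) did not pass over macrophages (699 and 493 CPM, adjusted p = 0.16), and *Dusp6*, a phosphatase that acts on ERK kinases, ranged from 4.88 CPM in neurons to 136 CPM in macrophages. In SGCs 11 of the 12 feedback genes were lower than the mean over the remaining types (23.5% of all genes tested were). In neurons all 12 were (31.4% of all genes).

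The GADD45 genes encode small proteins induced by DNA damage and growth arrest, and each had another leading type. *Gadd45g* was at 970 and 790 CPM in mural cells and 478 and 481 CPM in endothelial cells (0.88 ± 0.19, adjusted p = 0.00099). Myelinating Schwann cells had 20.95 and 19.55 CPM and neurons 158 and 121 CPM. *Gadd45b* was at 358 and 392 CPM in myelinating Schwann cells and 298 and 278 CPM in mural cells, a difference at the threshold (0.38 ± 0.15, adjusted p = 0.05) that was lost in 8 of 15 other settings. *Gadd45a* was low, at 64.3 and 46.1 CPM in fibroblasts, 37.1 and 25.1 CPM in mural cells and 30.8 and 27.2 CPM in neurons. It was the only member outside the heat shock group that was higher in neurons than the mean over the remaining types (0.66 on the log2 scale), and it passed in fibroblasts against each other type. The fibroblast clusters differed in *Gadd45a*. In plain CPM, without TMM, it was at 110.5 and 70.43 CPM in the cluster led by *Apod* and at 14.54 and 8.85 CPM in the cluster led by *Ecrg4*.

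Taken type by type, 12 of the 39 members were higher in macrophages than in each of the other 7 types (9.63% of all genes tested were). The count was 5 in endothelial cells (6.4% of all genes), 4 in myelinating Schwann cells (4.44%), and 2 each in fibroblasts (4.2%), mural cells (4.12%) and neurons (15.8%). It was 0 in SGCs (4.78%) and 0 in non-myelinating Schwann cells (1.4%). The calls for *Nr4a2*, *Klf2*, *Klf4*, *Ier2*, *Ier3*, *Cebpd*, *Ier5*, *Atf3*, *Klf6*, *Dnajb1* and *Hsp90aa1* were kept in every other setting in which all pairs of types were tested. With 49 cells drawn per type and sample, 14 of the 27 calls were lost and 13 kept. With cells called from UMI totals alone, *Nr4a1*, *Junb*, *Cebpb*, *Zfp36* and *Zfp36l1* were lost. *Nr4a1* was also lost with DESeq2 and *Egr3* when clusters needed no marker pair. For neurons, the count of 2 lay under the share of all genes that were highest there. In neurons 23 members had their lowest level of the 8 types, and in SGCs 7 did. The share of all genes that were lowest in each type was not computed, so these counts have no background beside them.

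The heat shock members differed in the type where they were highest. *Hspa8*, the constitutive member of the heat shock protein 70 family, was at 2228 and 2100 CPM in neurons and 1654 and 1795 CPM in macrophages. All other types lay between 613 and 989 CPM. *Hsp90aa1*, a heat shock protein 90 gene, was at 1531 and 1422 CPM in neurons, 959 and 868 CPM in macrophages, 433 and 480 CPM in mural cells and between 251 and 293 CPM elsewhere. Neurons were above macrophages by 0.33 ± 0.09 (log2, adjusted p = 0.0032) for *Hspa8* and by 0.69 ± 0.10 (adjusted p = 6.2e-06) for *Hsp90aa1*. Without the shared barcodes *Hsp90aa1* still passed in neurons against each other type and *Hspa8* did not, and *Hspa8* was also lost with doublet-scored cells removed or the shallow neuron cluster kept. *Hsp90aa1* gave 175 and 157 UMIs per neuron, against 3.98 and 4.27 per SGC.

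*Hspa1a* and *Hspa1b*, the inducible heat shock protein 70 genes, had other leading types. *Hspa1a* was at 2035 and 2246 CPM in macrophages, 1890 and 2184 CPM in mural cells and 1030 and 1154 CPM in non-myelinating Schwann cells. It was at 508.5 and 898 CPM in endothelial cells, 384 and 593 CPM in SGCs, 299 and 442 CPM in myelinating Schwann cells, 136.8 and 115.5 CPM in neurons and 98.6 and 147 CPM in fibroblasts. Macrophages and mural cells overlapped (0.07 ± 0.25, adjusted p = 0.86). *Hspa1b* followed the same types, from 919 and 1022 CPM in macrophages and 691 and 734 CPM in mural cells down to 49.46 and 59.98 CPM in fibroblasts. Among Schwann cells, the myelinating cells thus had more *Fos* and less *Hspa1a* than the non-myelinating cells in both samples.

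*Hspb1*, a small heat shock protein, was at 1227 and 1285 CPM in mural cells and 1148 and 1345 CPM in endothelial cells, which overlapped, and at 432 and 455 CPM in neurons. SGCs had 9.30 and 16.4 CPM and myelinating Schwann cells 14.1 and 22.5 CPM. *Dnajb1*, a co-chaperone of heat shock protein 70, and *Hspe1*, of the mitochondrial chaperonin, were higher in macrophages than in each other type, at 163 and 184 CPM and at 357 and 364 CPM. They were also the heat shock members that were higher in SGCs than the mean over the remaining types, by 0.41 and 0.21 on the log2 scale. In neurons 5 of the 7 heat shock members were higher than the mean of the others (37.0% of all genes tested were). The 2 that were lower were *Hspa1a* and *Hspa1b* (31.4% of all genes were lower). *Dnajb1* in neurons, higher by 0.489, turned to -0.474 with the shallow neuron cluster kept.

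Genes outside the 39 were read from 4 further lists. Of 32 other immediate early genes tested, 29 were lower in neurons and 2 higher, 21 were lower in SGCs and 5 higher, 23 were higher in endothelial cells and 3 lower, and 17 were higher in macrophages and 6 lower. Of all genes tested, 37.0% were higher and 31.4% lower in neurons, 34.5% and 23.5% in SGCs, 26.4% and 25.9% in endothelial cells and 23.3% and 27.3% in macrophages. Among those with the largest mean levels, *Klf9* was highest in myelinating Schwann cells (664 and 690 CPM), *Mcl1*, a survival gene, in macrophages (732 and 760 CPM), and *Ccn1*, a matrix protein gene, was at 306 and 421 CPM in SGCs and 15.5 and 24.2 CPM in neurons. Of 22 other chaperone genes, 13 were higher and 6 lower in neurons. In all, 10 were higher there than in each other type (15.8% of all genes tested were), among them *Hsp90ab1* (2869 and 2911 CPM). *Cryab*, a small heat shock protein of glia and muscle, was at 3472 and 3646 CPM in myelinating Schwann cells and 34.5 and 49.0 CPM in neurons. Of 17 oxidative and unfolded protein stress genes, 12 were higher in endothelial cells and 1 lower, and 9 were higher in macrophages and 5 lower, with *Mt1*, a metallothionein, at 2958 and 2842 CPM in endothelial cells and 3500 and 3610 CPM in myelinating Schwann cells. Of 9 genes of the neuronal injury response, 7 were higher in neurons and 2 lower, the higher ones including *Gap43* at 525 and 465 CPM, a growth cone gene also made by uninjured sensory neurons.

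Within a type, cells differed widely. With each cell thinned to 1000 UMIs, the 32 members gave a median of 3 and 4 UMIs in SGCs of samples 1 and 2 and 2 UMIs in neurons of each sample. The median was 22 and 19 UMIs in mural cells, 21 and 20 in macrophages, 13.5 and 20 in endothelial cells, 14 and 17 in myelinating and 9 and 7 in non-myelinating Schwann cells. Fibroblasts had a low median, 7 and 9 UMIs, and a 90th percentile of 46 and 47 UMIs, beside 48 and 44.7 in macrophages. Thinning left out no SGC, neuron, mural cell or macrophage, and at most 12 cells of any other type and sample.

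**Figure D4:**
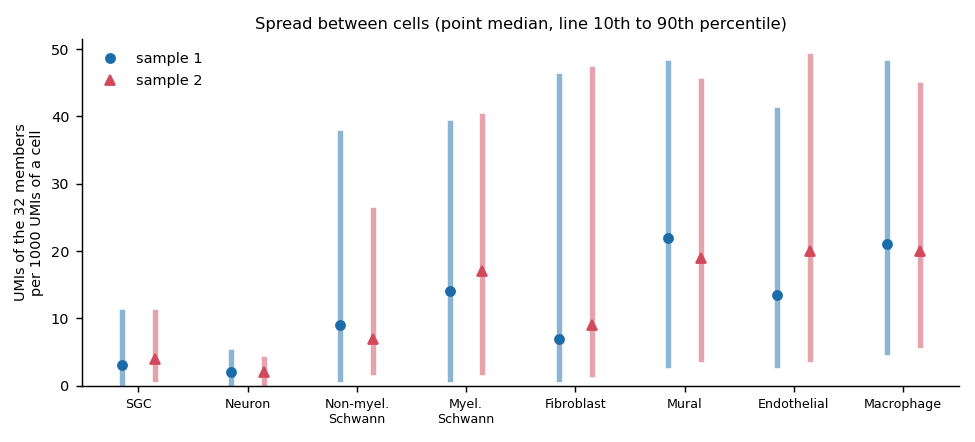
UMIs of the 32 members outside the heat shock group per cell after thinning every cell to 1000 UMIs, by cell type. Points are medians over cells (circles sample 1, triangles sample 2) and lines run from the 10th to the 90th percentile; fibroblasts have a median of 7 and 9 UMIs and a 90th percentile of 46 and 47.

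The fibroblasts came from 2 clusters that stood apart in these genes, although none of the 39 was used for clustering. In the 727 cells of the cluster led by *Apod* and *Dcn*, the 32 members took 2.41% and 2.46% of UMIs, and in the 434 cells of the cluster led by *Ecrg4* and *Mgp* they took 0.533% and 0.725%. On a plain CPM scale without TMM, *Fos* was at 5080 and 5615 CPM in the first and 823 and 1127 CPM in the second, and *Cebpd* at 2346 and 2176 CPM against 176 and 275 CPM. *Hspa1a* did not follow, at 98.4 and 148 CPM against 108 and 164 CPM. The clusters had median depths of 11822 and 13604.5 UMIs. The 3 named SGC clusters were all low, at 0.449% and 0.474%, 0.514% and 0.613%, and 0.279% and 0.306%. A cluster of 2840 cells with SGC markers, left unnamed by the marker pair requirement, was higher, at 0.744% and 0.804%. Cluster values are a description, since the clusters were made from the same cells, and no test was run on them.

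Cells with more *Fos* also had more *Junb*. Across cells thinned to 5000 UMIs, Pearson's r of log counts of *Fos* and *Junb* lay between 0.556 and 0.864 in the 7 types other than neurons (153 to 2755 cells per type and sample), and was 0.285 and 0.246 over 52 and 49 neurons. For *Fos* and *Jun* r was 0.39 and 0.562 in neurons and between 0.514 and 0.825 in the other types. This depth left out 740 and 660 myelinating Schwann cells of samples 1 and 2 and 227 non-myelinating Schwann cells of each. At most 70 cells of any other type and sample were left out. The fibroblast values pool clusters that differed in *Fos*. For *Hspa8* and *Hsp90aa1* r was 0.599 and 0.772 in neurons and at most 0.333 elsewhere. *Fos* and *Junb* had low levels in neurons and *Hsp90aa1* had lower levels outside them, and the part of low counts in these values was not tested. The cells of one r share a library and a depth, so these values describe the cells and were not tested.

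Both samples had the same condition, and with 1 library each no test of their difference was possible. Over the 8 types, 21 of 311 member values with at least 20 UMIs differed by more than 1.5-fold between the samples. The count was 6 of 39 in non-myelinating Schwann cells (6.07% of all genes with that many UMIs), 5 of 39 in neurons (10.8%), 3 of 38 in macrophages (15.5%), 2 of 39 each in SGCs (1.24%), myelinating Schwann cells (4.86%) and endothelial cells (8.63%), 1 of 39 in fibroblasts (6.82%) and 0 of 39 in mural cells (9.12%). In non-myelinating Schwann cells 34 of 39 were higher in sample 1, with a median log2 ratio of sample 2 over sample 1 of -0.24. In endothelial cells 33 of 39 were higher in sample 2 (median 0.14), and in fibroblasts 32 of 39 (median 0.16). In myelinating Schwann cells 27 were higher in sample 2 and 12 in sample 1, in SGCs 22 and 17, in macrophages 16 and 22, in neurons 14 and 25, and in mural cells 11 and 28. The medians over all genes lay between -0.009 and 0.018 in the 8 types.

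No member passed 1.5-fold between samples in at least 4 of the 8 types (0.46% of genes with 20 UMIs in every type did). *Hspb1* came nearest, past 1.5-fold in 3 types and higher in sample 2 in all 8. In SGCs its log2 ratio of sample 2 over sample 1 was 0.80 in plain CPM and 0.47 after the expected UMIs of empty droplets were taken off, and in myelinating Schwann cells it was 0.66 and 0.081, so in both types *Hspb1* fell under 1.5-fold. In macrophages the ratios of *Hspb1* were 1.31 and 1.33. *Hspa1a* and *Hspa1b* were each higher in sample 2 in 7 of 8 types, and *Hspa1a* in endothelial cells stood at 508.5 and 898 CPM. *Gadd45a* was higher in sample 1 in all 7 types with enough UMIs. The types of a sample share 1 preparation and are not replicates of it.

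**Figure D5:**
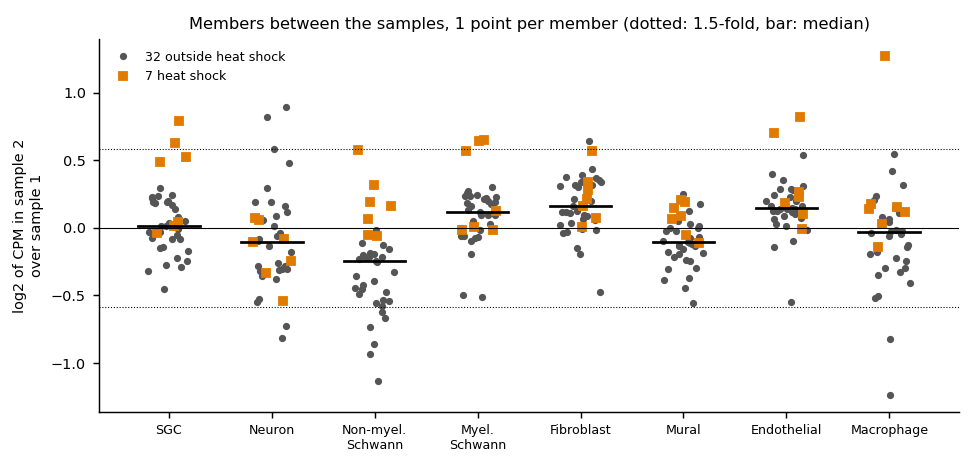
log2 of the CPM in sample 2 over sample 1 for each member with at least 20 UMIs, by cell type; grey circles are the 32 members outside the heat shock group, orange squares the 7 heat shock members, bars the medians and dotted lines 1.5-fold. The grey points lie mostly below 0 in non-myelinating Schwann cells (median of all 39 -0.24) and mostly above 0 in endothelial cells (0.14).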

How the data were processed

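Single cell libraries were made from 2 naive L4 and L5 DRG samples with a 10x Genomics kit. Per the labels the authors ran Cell Ranger on the mm10 build and deposited raw UMI counts per gene and barcode, with all barcodes kept, so cells were called again here: a UMI cutoff, then a test of each smaller barcode with at least 500 UMIs against the RNA of empty droplets (ranks 45000 to 90000, 10000 simulations, false discovery rate 0.01), keeping cells with more than 300 genes. Counts were normalised with SCTransform and clustered in Seurat 5.3.0 (3000 variable genes, 30 components, resolution 0.8). No listed gene, the 39 members included, could be a variable gene (75 would have been). Clusters were named from 126 markers: at least 3 markers of the class among the 50 leading genes, and more than of any other class. Each gene of the study's marker pair also had to reach a set fraction of its highest level among the candidate clusters of that class. Of 20 clusters 6 were left unnamed (4425 cells); a cluster averaging under 1000 genes per cell stayed out, and doublets were scored but removed only in an alternative. Within a type, cells above the median plus 5 MAD in UMIs or mitochondrial share were removed.

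UMIs were summed per type and sample (at least 20 cells, or at least 10 cells with shared barcodes removed). CPM are TMM-scaled. edgeR 4.0.16 (glmQLFit, glmQLFTest, prior count 0.125) fitted 16 profiles of 8 types in 1 model for genes that reached 10 UMIs in 2 or more profiles; p-values were adjusted by Benjamini-Hochberg over all genes tested, threshold 0.05. Changes "against each other type" needed an adjusted p under 0.05 in all 7 pairs. The residual spread is that between 2 samples per type, and it may hold technical parts, since the labels do not say how many mice each sample pooled. The fit was tested on simulated counts for each of the 8 comparisons. Genes printed in full follow a rule: members above each other type, the 2 highest of each role in each type, and members past 1.5-fold between samples in at least 4 types; of other lists at most 4 genes are named, and cluster values were added after they were seen. The 39 members and all lists were chosen with earlier results of these data known, and the details of cluster naming were set after seeing the clusters. UMI thinning was to 1000 per cell (2000 as an alternative), with exact 95% binomial intervals. Sequences are from RefSeq promoters (GRCm38.p6), gene positions from GENCODE M21. The rest was computed in Python 3.11.15. Alternatives were DESeq2 1.42.0, other filters, clusterings, cell calls and cutoffs, a replicate block, and the added changes (shared barcodes removed, no marker pair, shallow cluster kept, cutoffs over all cells, no UMI minimum, each sample alone).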

Additional observations from a re-analysis of the deposited data

Results flagged for a closer look

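The 6 unnamed clusters entered no comparison, and each carried UMIs of the 32 members outside the heat shock group, as % of its UMIs in samples 1 and 2, above what 3 counts would give. The largest, 2840 cells led by *Pou3f1*, a factor of the Schwann cell lineage, had 0.744% and 0.804%, between the SGCs and the Schwann cells. By its markers it was a candidate for SGCs (4 SGC markers), and only the marker pair requirement left it out. Its shares lay above those of each named SGC cluster. With no marker pair required, the median log2 difference over the members in SGCs was -1.15, against -1.27 in the main fit. The cluster led by *Cd74*, an antigen presentation gene, had 1.16% and 1.07% in 483 cells. The shallow cluster led by *Prph* had 0.287% and 0.23% in 425 droplets, of which 161 shared a barcode with the other library. The cluster led by mitochondrial *mt-Co3* had 0.286% and 0.331%, and the cluster led by *Ncmap*, a myelin gene, had 1.11% and 0.998%, with 186 of its 233 cells scored as doublets. In the 152 cells led by *Igfbp6* the samples lay furthest apart, at 0.688% and 1.27%.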

How the results depend on the processing

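Of 265 calls of a member against the mean of the other types, 265 kept their side in sample 1 alone and in sample 2 alone. The calls were made on these same samples, so this is not an independent check of them. Leaving a sample out left no replicates for a test, so no count of calls could be given. Members higher in SGCs numbered 6 with no low-count filter and 1 with 49 cells drawn per type and sample. With 49 cells drawn per type, 10 were higher in myelinating and 5 in non-myelinating Schwann cells, 1 was lower in macrophages, and the members above each other type fell to 1 in myelinating Schwann cells, 0 in mural cells, 5 in macrophages and 14 in all. That setting kept far fewer UMIs, and 80 member values then differed by over 1.5-fold between the samples. Cutoffs over all cells together, added after seeing the data, removed neurons from the fit and gave 10 higher in myelinating and 24 lower in non-myelinating Schwann cells and 8 lower in endothelial cells. With all other cells summed into 1 profile, 9 were lower in non-myelinating Schwann cells and 5 in mural cells. Members above each other type were 2 in myelinating Schwann cells with DESeq2, 4 in mural cells with cells from UMI totals alone, 1 in neurons with doublet-scored cells or shared barcodes removed or the shallow neuron cluster kept, and 1 in fibroblasts with that cluster kept. The causes of these shifts were not tested. The share of all genes called in each setting is not given here, so a changed count of members cannot be set against it. The types of a sample share 1 preparation, and the main fit did not use this pairing. For each type the log2 ratio of sample 2 over sample 1 was taken over the genes tested. These ratios correlated between types at a median of 0.0438 (2 of 28 pairs of types above 0.1). With the replicate block 307 of 312 member results kept their call, 5 gained one and 0 lost one. Calls for *Nr4a2* in mural cells turned with resolution 1.2 (-0.642) and with cells from UMI totals alone (-0.876) and with 1 profile (-0.579), and *Fos* in non-myelinating Schwann cells, called higher by 0.313, was at -0.484 with 49 cells per type and -0.317 with cutoffs over all cells. With all other cells as 1 profile, *Btg2*, *Nfkbia*, *Myc* and *Dusp1* in myelinating Schwann cells, *Btg2*, *Jund* and *Nfkbia* in non-myelinating Schwann cells and *Rhob*, *Nfkbia* and *Hspa8* in fibroblasts turned from lower to between 0.055 and 0.249, and *Egr3* turned below 0 in 4 types. Mean levels above those of the other types, with 1 sample left out and no test, were found for 6 to 7 members in SGCs and in neurons and for 35 in macrophages. Low counts limit *Myc* and *Gadd45a*, and the small number of cells limits the 101 neurons.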
